A study of Mus musculus with 6 samples.

Results

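Nde1, Ints3 and Appl1 were higher in the ventricles of mice that expressed an active form of either ATF6 protein, and they are described here with a close relative of each: Ndel1, the paralog of Nde1, Ints6, a complex mate of Ints3, and Appl2, the paralog of Appl1. These 6 genes are 6 of 22206 transcript clusters (the array's unit for a gene) measured in the series. The first of each pair was selected on its measured rise against control in both lines, and the second for its kinship. All 6 have a cluster of their own on the array, with none shared with another gene. The array names the clusters TC1600000176.mm.2 (Nde1), TC1100003019.mm.2 (Ndel1), TC0300002370.mm.2 (Ints3), TC1400002208.mm.2 (Ints6), TC1400001627.mm.2 (Appl1) and TC1000002586.mm.2 (Appl2), and RefSeq (GRCm38.p6) places the genes on mouse chromosomes 16, 11, 3, 14, 14 and 10 in that order.

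RNA came from the ventricles of 6 mice, 2 in each group, and each RNA was put on its own Clariom S mouse array. ATF6α-cn mice carried the αMHC-tTA driver and a transgene for the transcriptionally active N-terminal part of ATF6α with a FLAG tag. ATF6β-cn mice carried the same driver and the N-terminal part of ATF6β with a Myc tag, and the controls had only the αMHC-tTA driver. The mice were 8 weeks old on a C57BL/6 background, and those of the transgenic lines had been 4 weeks without doxycycline (DOX), which holds the transgenes off. Both the driver and the transgenes are under α-myosin heavy chain promoters, so the proteins are made in cardiac myocytes, and ATF6β-cn mice kept without DOX from birth did not survive to weaning. By the labels, each array is a separate biological replicate.

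NDE1 and NDEL1 are scaffold proteins that bind LIS1 and cytoplasmic dynein, the motor that runs toward the minus end of microtubules, and NDE1 is best known for its role in the division of neural progenitors. INTS3 and INTS6 belong to Integrator, a nuclear complex that cleaves the 3′ ends of small nuclear RNAs and terminates transcription of other genes, and INTS3 also sits in the SOSS complex, which binds single-stranded DNA after damage. APPL1 and APPL2 are adaptor proteins of early endosomes that bind RAB5, and APPL1 links adiponectin receptors to AKT signaling. None of the 6 is a chaperone or degradation factor of the endoplasmic reticulum (ER), the gene classes for which ATF6 proteins are known.

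ATF6 proteins bind the CCACG part of the ER stress response element (ERSE), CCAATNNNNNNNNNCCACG, together with NF-Y, which binds its CCAAT part. A related element, ERSE-II, is ATTGGNCCACG, and the UPR element was searched as TGACGTGG only. The RefSeq promoter table (build GRCm38.p6, windows from 250 bases before to 50 bases after a gene's start) held 5 of the 6 genes, and the Appl1 window was not analysed here. None of the 5 windows held any of the 3 elements in these exact letters on either strand, against 0.822% of 32851 windows in the table. The form TGACGTGA, which differs in its last base, was not searched or counted. It stands in 2 of the windows printed below, Hspa5 and, on the opposite strand, Ndel1. CCACG alone was in 3 of the 5, Nde1 (2 matches), Ndel1 (1) and Appl2 (1), against 32.8% of all windows, and CCAAT alone was in 3, Nde1 (2), Ints3 (2) and Ints6 (1), against 37.4%. CCACG and CCAAT are parts of the longer elements, so these shares are not separate from theirs. The windows of the pair Nde1 and Ndel1 are shown because both hold CCACG while only 1 of the genes was high, that of Ints3 because it is the other raised gene with a window, and that of Hspa5 because this gene, which encodes the ER chaperone BiP, had the profile nearest to Appl1 and its window holds an ERSE. Capitals mark CCACG and CCAAT on either strand.
Nde1, chr16:14163025-14163324, plus strand: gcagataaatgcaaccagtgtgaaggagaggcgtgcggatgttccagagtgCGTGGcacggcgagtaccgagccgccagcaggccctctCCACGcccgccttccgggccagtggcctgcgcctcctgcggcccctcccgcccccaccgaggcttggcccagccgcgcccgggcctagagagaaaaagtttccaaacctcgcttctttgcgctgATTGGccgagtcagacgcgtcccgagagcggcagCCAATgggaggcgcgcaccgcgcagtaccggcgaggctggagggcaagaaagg
Ndel1, chr11:68853086-68853385, minus strand: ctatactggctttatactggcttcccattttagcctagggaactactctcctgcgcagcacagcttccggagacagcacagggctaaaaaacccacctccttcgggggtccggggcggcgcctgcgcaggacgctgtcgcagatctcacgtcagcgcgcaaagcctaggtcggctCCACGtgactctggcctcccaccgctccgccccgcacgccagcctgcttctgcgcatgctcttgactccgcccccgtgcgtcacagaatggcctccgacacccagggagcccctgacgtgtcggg
Ints3, chr3:90433587-90433886, minus strand: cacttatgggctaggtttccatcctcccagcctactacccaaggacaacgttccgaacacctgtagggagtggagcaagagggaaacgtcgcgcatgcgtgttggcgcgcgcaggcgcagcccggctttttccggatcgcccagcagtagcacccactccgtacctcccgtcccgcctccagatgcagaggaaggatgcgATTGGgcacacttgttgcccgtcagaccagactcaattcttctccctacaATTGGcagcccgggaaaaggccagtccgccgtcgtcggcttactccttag
Hspa5, chr2:34771840-34772139, plus strand: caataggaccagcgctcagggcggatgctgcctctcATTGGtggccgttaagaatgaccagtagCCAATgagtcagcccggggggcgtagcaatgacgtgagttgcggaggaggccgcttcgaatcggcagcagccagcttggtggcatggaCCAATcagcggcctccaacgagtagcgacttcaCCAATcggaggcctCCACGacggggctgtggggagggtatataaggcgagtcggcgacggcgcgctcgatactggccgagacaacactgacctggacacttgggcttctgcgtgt
In the Nde1 window no CCACG lay at the ERSE spacing from a CCAAT, and in the Ints3 window both CCAAT matches stood without a CCACG. A match or its lack is a description of these letters in these windows only.

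Values are the deposited log2 signals, 1 per cluster and array. Median log2 signals of the arrays lay between 5.58 and 5.64, with a correlation of 0.990 to 0.991 between arrays of one group. The level not told from background was taken as 5.22, the 95th percentile over 1451 clusters of odorant and pheromone receptors, and all 6 genes were above it on all 6 arrays. The median of 5245 background probe sets was 5.46 and 5.48 on the ATF6α-cn arrays and 5.45 and 5.44 on the ATF6β-cn arrays, against 5.08 and 5.02 on the control arrays, a smaller gap than those of the raised genes below, and its part in them was not tested. On every transgenic array this median was above 5.22, so a dim gene slightly above 5.22 there may still be at background. Of the transgenes' own genes, Atf6b had log2 signals of 14.80 and 14.81 in ATF6β-cn against 8.72 and 8.63 in control, and Atf6 had 12.70 and 13.07 in ATF6α-cn against 13.09 and 13.04 in control. The Atf6 cluster thus did not stand apart in its own line, and where its probes lie in the message was not analysed here. By qPCR, the paper reports raised Atf6 message in that line. In ATF6β-cn the Atf6 cluster was at 12.25 and 11.94, a log2 difference from control of −0.97 (limma's adjusted p = 0.110). For this line the paper's qPCR gives a larger fall of Atf6 message, against wild-type control hearts. All 10 markers of cardiac myocytes, such as Myh6 and Tnnt2, were above background on every array, and their mean log2 signal over the list lay between 18.39 and 18.54 on each array. Some repeated the same value across arrays, as Tnni3 did at 17.98 on ATF6α-cn replicate 1 and both ATF6β-cn arrays. The steady mean is thus no measure of myocyte content. In ATF6β-cn Mybpc3 had a log2 difference of −0.65 and Myl3 one of −0.42, while 6 of the 10 were above 0.

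Nde1 had the largest difference from control of the 6 genes in both lines, although in ATF6α-cn that of Ints3 was the larger without control replicate 1 (2.39 for Nde1, 2.56 for Ints3) and without ATF6α-cn replicate 2 (2.56 and 2.76). Its log2 signal was 10.52 and 10.71 in ATF6α-cn ventricles, 10.83 and 11.31 in ATF6β-cn ventricles, and 7.70 and 8.23 in control ventricles. All 4 transgenic arrays were above both control arrays, and the lowest transgenic array lay 2.29 log2 units above the highest control array. The log2 difference from control was 2.65 in ATF6α-cn (standard error 0.27, 6.28-fold) and 3.11 in ATF6β-cn (standard error 0.27, 8.61-fold). These differences chose the gene, so they are given as a description with no test. By size of change Nde1 stood at place 12 among all clusters in ATF6α-cn and at place 20 in ATF6β-cn.

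Ndel1, the paralog, lay close to its control level. It had log2 signals of 11.77 and 11.61 in ATF6α-cn, 11.51 and 11.50 in ATF6β-cn, and 11.42 and 11.48 in control. Although both arrays of each line were above both control arrays, the gap came to 0.13 for ATF6α-cn and 0.01 for ATF6β-cn. The log2 difference was 0.24 in ATF6α-cn (95% interval −0.23 to 0.72) and 0.06 in ATF6β-cn (95% interval −0.42 to 0.53). The change of Nde1 exceeded that of Ndel1 by 2.41 in ATF6α-cn (5.31-fold) and by 3.05 in ATF6β-cn (8.28-fold), where the within-array difference of the genes varied by 0.29 and 0.34 between arrays of a group (pooled SD, n = 2 arrays per group).

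Ints3 was raised to nearly the same level in both lines. It had log2 signals of 10.78 and 10.27 in ATF6α-cn, 10.20 and 10.63 in ATF6β-cn, and 8.08 and 7.97 in control. The arrays of the lines overlapped each other, and all 4 were at least 2.12 log2 units above the highest control array. The log2 difference from control was 2.50 in ATF6α-cn (standard error 0.26, 5.67-fold) and 2.39 in ATF6β-cn (standard error 0.26, 5.24-fold), places 15 and 39 among all clusters.

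Ints6, a subunit of the same complex, did not share this pattern. Its log2 signal was 8.91 and 8.86 in ATF6α-cn, 7.70 and 8.62 in ATF6β-cn, and 8.53 and 8.70 in control. The ATF6β-cn arrays were far apart from each other, with an SD of 0.65, and 1 of them lay within the control range. The log2 difference was 0.28 in ATF6α-cn (95% interval −0.42 to 0.97) and −0.45 in ATF6β-cn (95% interval −1.15 to 0.24), which became 0.0066 when ATF6β-cn replicate 1 was left out and −0.92 when replicate 2 was. The change of Ints3 exceeded that of Ints6 by 2.23 in ATF6α-cn and by 2.84 in ATF6β-cn, with a pooled SD between arrays of 0.27 and 0.28.

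Appl1 was high in both lines and highest in ATF6α-cn. Its log2 signal was 13.37 and 13.37 in ATF6α-cn, 12.55 and 12.70 in ATF6β-cn, and 11.26 and 11.39 in control. The 3 groups did not overlap. The log2 difference from control was 2.05 in ATF6α-cn (standard error 0.21, 4.14-fold) and 1.30 in ATF6β-cn (standard error 0.21, 2.46-fold), places 21 and 234 among all clusters.

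Among the relatives, Appl2 had the largest difference from control, in ATF6β-cn. The signals of Appl2 were 10.82 and 10.93 in ATF6α-cn, 11.16 and 11.73 in ATF6β-cn, and 10.82 and 10.81 in control. In ATF6α-cn its arrays overlapped those of control, and in ATF6β-cn both lay above. The log2 difference was 0.06 in ATF6α-cn (95% interval −0.51 to 0.62) and 0.63 in ATF6β-cn (95% interval 0.07 to 1.19), which became 0.91 when ATF6β-cn replicate 1 was left out and 0.34 when replicate 2 was. The change of Appl1 exceeded that of Appl2 by 1.99 in ATF6α-cn (3.98-fold, pooled SD 0.09) and by 0.67 in ATF6β-cn (1.59-fold, pooled SD 0.22).

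**Figure D1:**
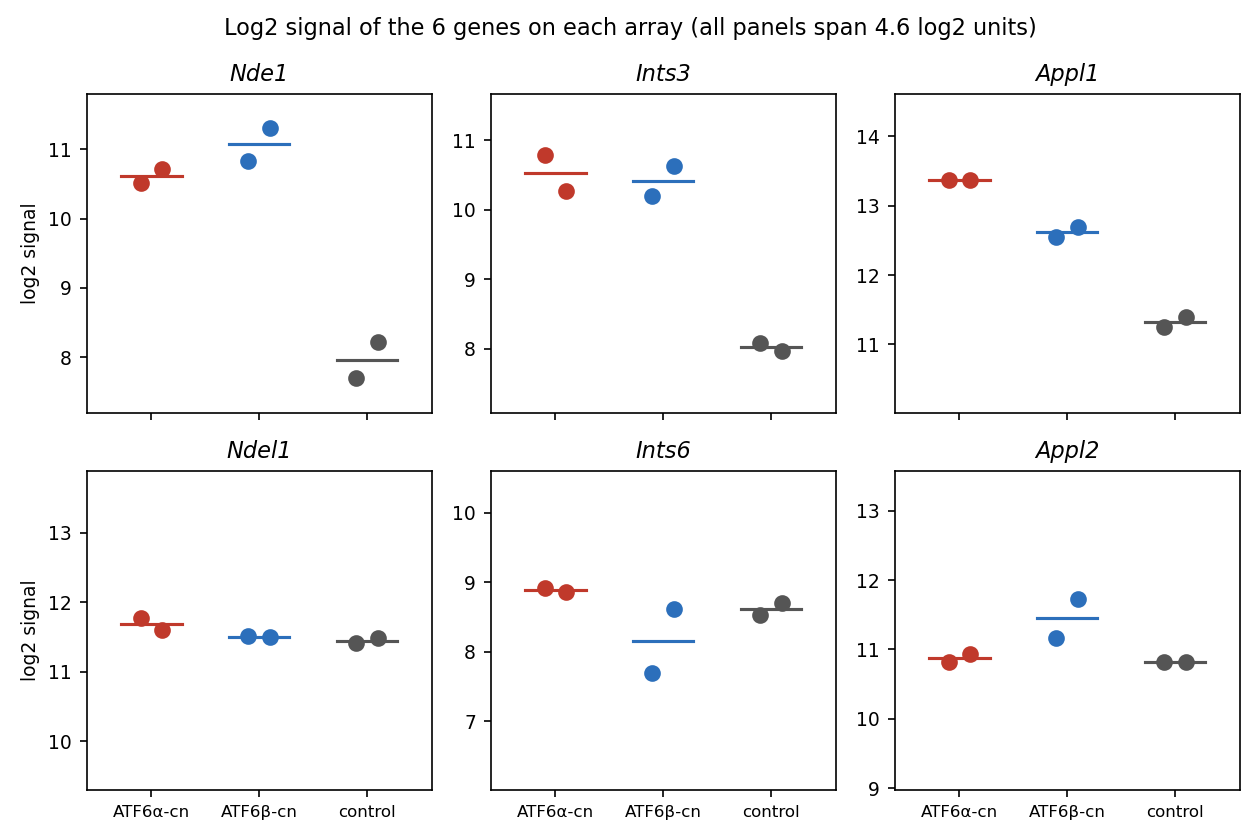
Log2 signal (vertical axis) of each gene on each of the 6 arrays, in the order ATF6α-cn, ATF6β-cn and control, with a line at the mean of the 2 arrays of a group. Nde1, Ints3 and Appl1 (top) lie above control on all 4 transgenic arrays by more than 1.15 log2 units, while Ndel1, Ints6 and Appl2 (bottom) lie near control except for Appl2 in ATF6β-cn and 1 low ATF6β-cn array of Ints6.

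Of the 6 genes, 3 were at least 2-fold higher than control in each line, the same 3 that the choice of genes fixes, beside 0.991% of all clusters in ATF6α-cn and 2% in ATF6β-cn. Around the line of 2-fold, a log2 difference of 1, the nearest genes inside and outside were Appl1 (2.05) and Ints6 (0.28) in ATF6α-cn, and Appl1 (1.30) and Appl2 (0.63) in ATF6β-cn. In each line 5 of the 6 genes had both arrays above both control arrays, as did 17.9% of all clusters in ATF6α-cn and 21.1% in ATF6β-cn. Nothing is read from these shares, since the choice of genes used the same comparisons.

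**Figure D2:**
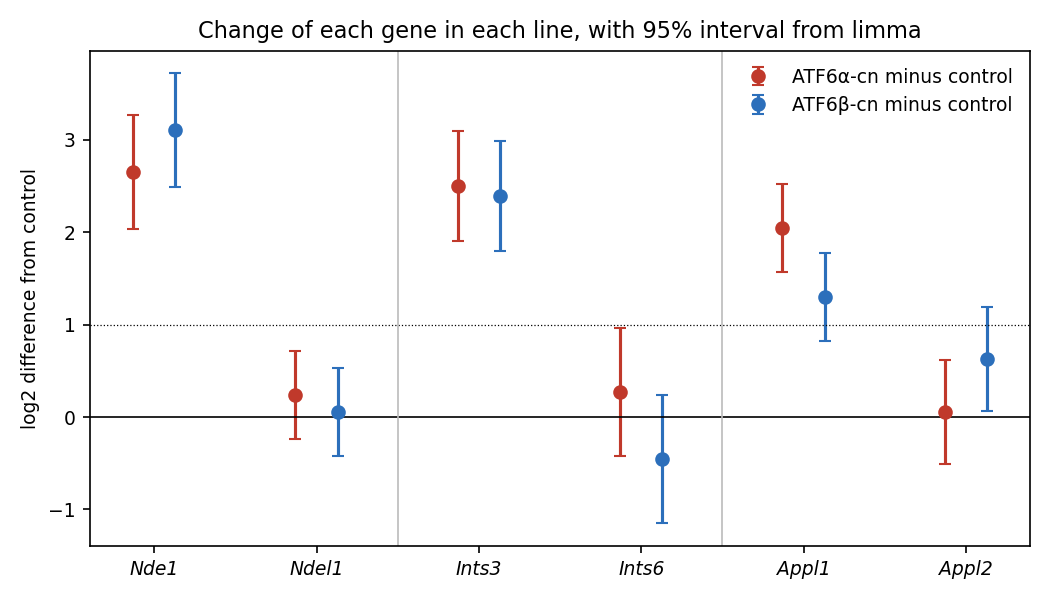
Log2 difference from control (vertical axis) of each gene in ATF6α-cn and in ATF6β-cn, with the 95% interval from limma on 2 arrays per group and a dotted line at 2-fold. Nde1, Ints3 and Appl1 are at 1.30 or more in both lines, and the intervals of Ndel1 and Ints6 span 0 in both lines.

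The direct comparison of the lines was not used to choose the genes and was tested. The paper states that the transgenes were expressed at unequal levels and holds that the transcription factors could therefore not be compared directly. Differences and orders between the lines are thus given for these lines only, not as a contrast of the proteins. The part of transgene level in them was not tested. None of the 6 genes differed between ATF6β-cn and ATF6α-cn by limma's adjusted p (threshold 0.05), where 0.221% of all clusters were higher and 0.0495% were lower in ATF6β-cn. Appl1 was lower in ATF6β-cn than in ATF6α-cn by a log2 difference of −0.75 (95% interval −1.23 to −0.27, adjusted p = 0.268 from limma). Ints6 had a difference of −0.73 (95% interval −1.42 to −0.04, adjusted p = 0.489 from limma) and Appl2 one of 0.57 (95% interval 0.01 to 1.14, adjusted p = 0.509 from limma). For Nde1 the difference was 0.46 (95% interval −0.16 to 1.07), for Ndel1 −0.19 (−0.66 to 0.29) and for Ints3 −0.11 (−0.71 to 0.48), so a difference of Ints3 between the lines of up to 0.71 log2 units could not be told from none. Before adjustment, 3 of the 6 genes passed 0.05 in limma (Appl1, Ints6 and Appl2), beside 9.67% of all clusters. The arrays of the lines did not overlap for 5 of the 6 genes, all but Ints3, and for 39.7% of all clusters. Within the pairs, the change of Appl1 minus that of Appl2 differed by −1.32 log2 units between ATF6β-cn and ATF6α-cn, and the same quantity differed by 0.64 for Nde1 minus Ndel1 and by 0.62 for Ints3 minus Ints6. With 2 arrays against 2, these pair values were not tested.

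Ordered by level, Nde1 ran from ATF6β-cn through ATF6α-cn to control, with the lines not told apart by the test. Ints3 and Appl1 ran from ATF6α-cn through ATF6β-cn to control, and the lines were not told apart for either gene. Ndel1 ran from ATF6α-cn through ATF6β-cn to control within 0.24 log2 units, Ints6 from ATF6α-cn through control to ATF6β-cn, and Appl2 from ATF6β-cn through ATF6α-cn to control.

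The genes for other proteins that work with NDE1 were measured as RNA, not protein. With 2 arrays per group, a lack of calls does not show that they stayed level. Of 28 measured genes for dynein, its activator dynactin, LIS1 and further partners, none passed limma's adjusted threshold in either line, where 0.0946% of all clusters were called higher and 0% lower in ATF6α-cn (995 lower at an unadjusted p under 0.05 from limma, and 0 after adjustment in a test with no moderation of the variances), and 0.793% were called higher and 0.306% lower in ATF6β-cn. At an unadjusted p under 0.05 from limma, 3 of the 28 passed in ATF6α-cn and 2 in ATF6β-cn, beside 8.92% and 13.9% of all clusters. The list had a median log2 difference of −0.17 for ATF6α-cn and −0.27 for ATF6β-cn, beside −0.03 and −0.02 over all clusters. Pafah1b1, which encodes LIS1, was at −0.07 in ATF6α-cn and −0.33 in ATF6β-cn. Among the widest differences was that of Dynll1, a dynein light chain, at 0.13 in ATF6α-cn and 0.94 in ATF6β-cn (limma's adjusted p = 0.155). Cenpf, a kinetochore protein that binds NDE1, was below background on all arrays.

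Of 16 further Integrator and SOSS genes, Nabp1 alone was called. Nabp1 encodes a single-stranded DNA binding protein that forms SOSS with INTS3. Its log2 signal was 11.75 and 12.17 in ATF6α-cn, 12.35 and 12.57 in ATF6β-cn, and 11.23 and 10.87 in control. The log2 difference was 1.41 in ATF6β-cn (standard error 0.25, limma's adjusted p = 0.0401) and 0.91 in ATF6α-cn (limma's adjusted p = 0.366), and ATF6β-cn minus ATF6α-cn came to 0.50 (adjusted p = 0.587 from limma). The call in ATF6β-cn ended when either ATF6β-cn array or either control array was left out, and also in a fit on the 4 arrays of ATF6β-cn and control alone. Ints7 was at 0.98 in each line and Ints6l, the paralog of Ints6, at 0.94 in ATF6α-cn and 0.84 in ATF6β-cn, and neither passed. Nabp2, the paralog that can take the place of Nabp1 in SOSS, was at −0.45 and −0.34, and Inip, the remaining SOSS subunit, at 0.28 and −0.17. Before adjustment 5 of the 16 passed 0.05 in ATF6α-cn, namely Nabp1, Ints7 and Ints6l on the higher side and Ints11 (−0.71) and Ints13 (−0.68) on the lower, and 3 passed in ATF6β-cn, beside the same 8.92% and 13.9% of all clusters. The list's median was −0.16 for ATF6α-cn and 0.03 for ATF6β-cn. Among all 18 Integrator and SOSS genes, Ints3 had the widest positive difference in both lines. It was 2.50 in ATF6α-cn, before 0.98 for Ints7, and 2.39 in ATF6β-cn, before 1.41 for Nabp1. Because Ints3 was chosen for its rise in these same comparisons, nothing is read from its first place. Ints6 held place 6 in ATF6α-cn and place 17 in ATF6β-cn.

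Of 25 measured partners of APPL proteins and early endosome genes, none was called in either line, and 2 passed an unadjusted p under 0.05 from limma in each, a share near or below the 8.92% and 13.9% over all clusters. The list's median lay at −0.04 for ATF6α-cn and −0.06 for ATF6β-cn. The RAB5 genes Rab5a, Rab5b and Rab5c had differences between −0.30 and −0.01 in both lines. The adiponectin receptor genes Adipor1 and Adipor2 were at 0.01 and −0.19 in ATF6α-cn and at −0.15 and −0.38 in ATF6β-cn. Gipc1, an adaptor that binds APPL1, was at 0.59 in ATF6α-cn and 0.94 in ATF6β-cn (limma's adjusted p = 0.158), Zfyve16, an endosomal protein, at 0.81 and 0.45, and Akt1 at −0.18 and −0.74. Between the lines no gene of the 3 lists passed limma's adjusted threshold, and 3, 1 and 1 passed 0.05 before adjustment.

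**Figure D3:**
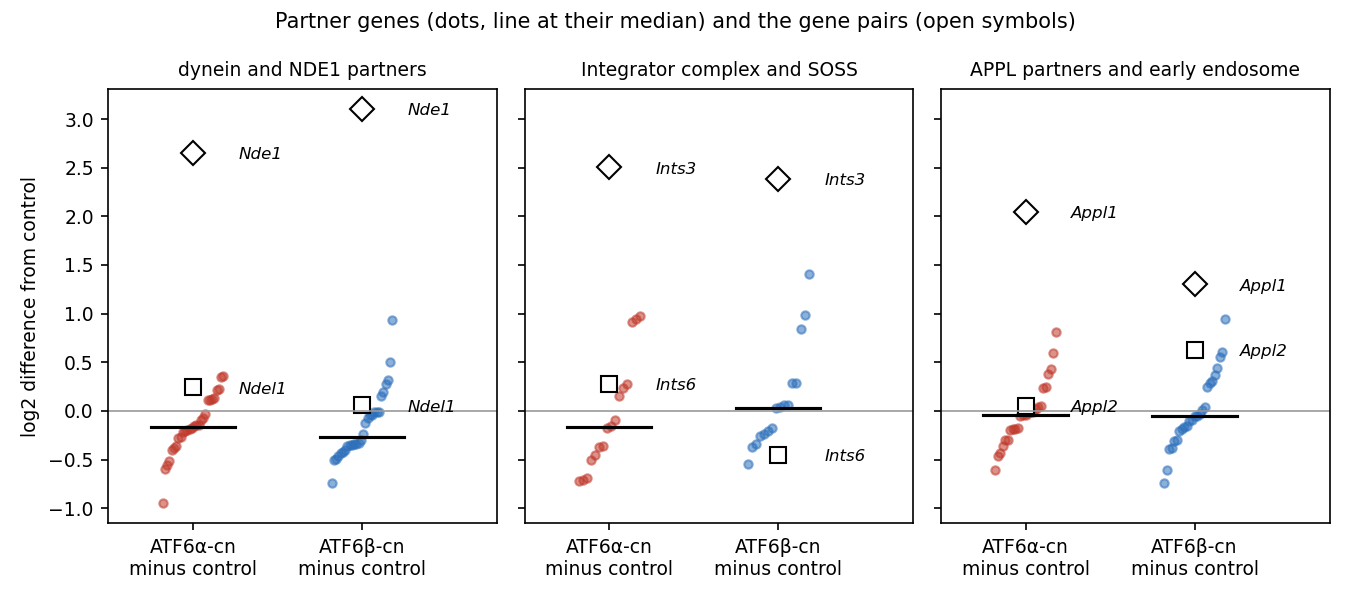
Log2 difference from control (vertical axis) in ATF6α-cn and ATF6β-cn for 28 dynein and NDE1 partners, 16 Integrator and SOSS genes and 25 APPL partners and early endosome genes (dots, spread sideways by rank, with a bar at the median), and for the gene pairs (diamonds for Nde1, Ints3 and Appl1, squares for their relatives). Nde1, Ints3 and Appl1 lie above every dot of their own panel in both lines, but they were chosen for a rise in these same comparisons, so nothing is read from this.

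The genes next to the 6 on their chromosomes ranged over −0.59 to 0.58 in ATF6α-cn and over −1.24 to 0.51 in ATF6β-cn, and none of the 11 with a cluster of their own was called by limma. Myh11, smooth muscle myosin, is the next gene after Nde1, as Myh10, a nonmuscle myosin, is the next to Ndel1. Myh11 had log2 signals of 8.65 and 8.14 in ATF6α-cn, 7.98 and 8.79 in ATF6β-cn, and 8.80 and 8.68 in control. Marf1, on the other side of Nde1, was at 0.12 in ATF6α-cn and 0.14 in ATF6β-cn. Slc27a3 and Npr1, on either side of Ints3, were at 0.05 and 0.07 in ATF6α-cn and at 0.28 and −0.03 in ATF6β-cn. Asb14 and Hesx1, on either side of Appl1, were at −0.59 and 0.18 in ATF6α-cn and at −0.18 and 0.10 in ATF6β-cn.

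In RNA of whole ventricle, more cells of a type and more RNA per cell cannot be told apart, so marker genes of other cells are set beside the rises. None of 16 cell division genes was called, with a median of 0.06 in ATF6α-cn and −0.24 in ATF6β-cn, and 2 of the 16 were above background on all arrays. The median over 9 smooth muscle genes was 0.00 and 0.08, and Acta2, smooth muscle actin, was the highest of them at 0.64 in ATF6α-cn and 1.497 in ATF6β-cn, where limma's adjusted p = 0.220. Over 9 fibroblast genes it was 0.14 and 0.61, over 9 endothelial genes 0.34 and −0.20, and over 10 macrophage genes 0.00 and 0.20. The fibroblast genes had mean log2 signals of 10.93 to 11.47 on the ATF6α-cn arrays and 10.95 to 11.67 on the ATF6β-cn arrays, against 10.87 to 10.88 on the control arrays, and the 6 atrial genes, 2 of them above background on all arrays, had 7.09 to 7.24, 6.94 to 7.25 and 6.75 to 6.78. The median over the atrial genes was 0.08 in each line, and Nppa, atrial natriuretic peptide, stood apart at 2.18 in ATF6α-cn and 1.57 in ATF6β-cn, not called. The paper uses Nppa (as ANF) as a marker of hypertrophy, so its value is not specific to atrial cells. Myl4, the other atrial gene above background on all arrays, was at −0.13 and 0.11. For the endothelial genes the mean log2 signals were 11.52 to 12.20 in ATF6α-cn, 11.27 to 11.38 in ATF6β-cn and 11.45 to 11.50 in control. Red blood cell genes with their own cluster (2) had a median of −0.15 and −0.59. Their part in the rises of Nde1, Ints3 and Appl1 was not tested.

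Genes whose profile over the 6 arrays was most like that of each raised gene were found by the root mean square distance between log2 signals set relative to their control mean. For Appl1 the nearest was Hspa5, at a distance of 0.23, with log2 signals of 19.03 and 18.73 in ATF6α-cn, 18.54 and 18.54 in ATF6β-cn, and 17.25 and 17.08 in control. Its next were Chka, a choline kinase (0.26), Piga, an enzyme of GPI anchor synthesis (0.31), Gm21897 (0.37) and Mgst2, a glutathione transferase (0.38). For Ints3 the nearest was Creld2, a secreted factor of the ER (0.33), then Vmn1r3 (0.43), the ER cochaperone Dnajc3 (0.45), Sel1l, the adaptor of an ER ubiquitin ligase (0.47), and Dnajb11, a cochaperone of BiP (0.47). For Nde1 they were Prkcz, an atypical protein kinase C (0.47), Fkbp7, an ER prolyl isomerase (0.52), Creld2 (0.58), Zfp324 (0.72) and Lipa, lysosomal acid lipase (0.77). Prkcz, Zfp324, Vmn1r3, Chka, Piga and Mgst2 each had at least 1 array below background. Vmn1r3 is a pheromone receptor gene, 1 of the 1451 receptor clusters that set the background level. It had log2 differences from control of 1.84 in ATF6α-cn and 2.38 in ATF6β-cn. Being chosen for likeness to genes that were high in both lines, these genes get no test here. Of these 14 genes, 12 had a promoter window in the RefSeq table, and 4 of the 12 held an ERSE (Hspa5, Creld2 and Dnajc3) or an ERSE-II (Dnajb11), elements that were in none of the 5 windows of the genes described. The share of windows with an ERSE was 0.119% over the whole table, and 0.0365% held an ERSE-II.

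**Figure D4:**
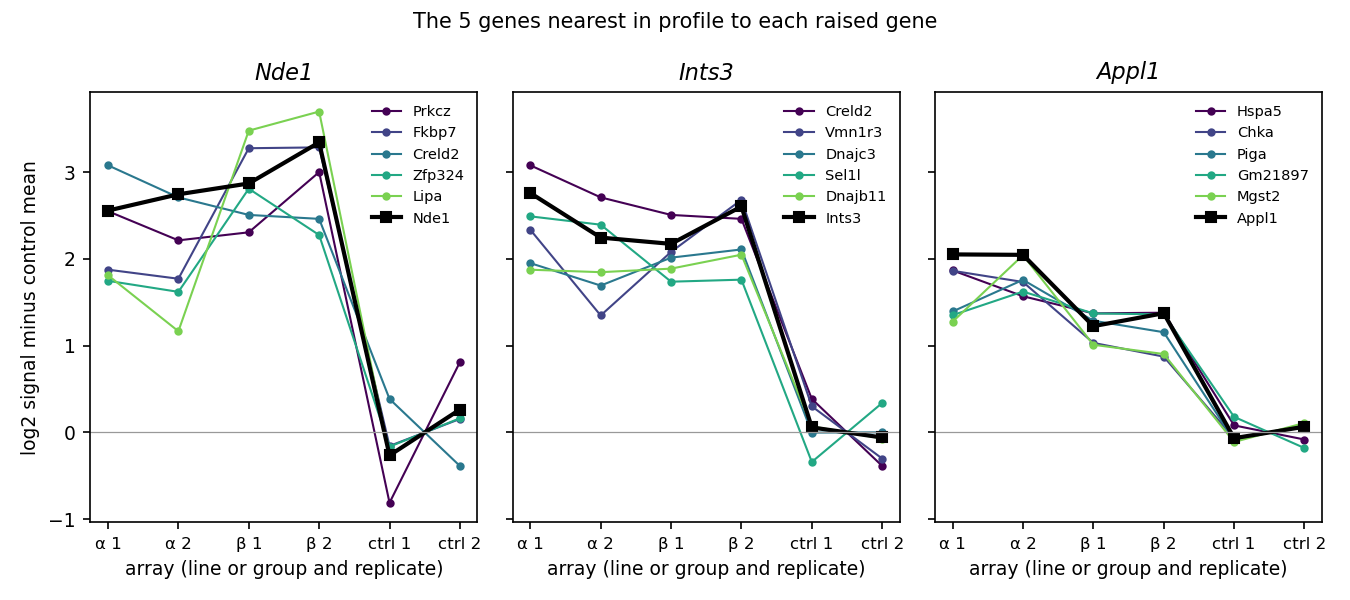
Log2 signal minus the mean of the control arrays (vertical axis) on each of the 6 arrays, for Nde1, Ints3 and Appl1 (black squares) and the 5 genes nearest to each by root mean square distance (colored dots). The profiles nearest to Appl1 lie within 0.38 of it on root mean square, and those nearest to Nde1 between 0.47 and 0.77.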

How the data were processed

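The authors deposited log2 signals, 1 value per probe set and array (28846 probe sets on 6 arrays). The near-equal array medians are those of values normalized between arrays, by a method the sources used here do not name. Affymetrix Expression Console is named in the submitters' notes, without version or summary method. Other deposited columns, with the authors' own fold changes and p-values, were not used, only their gene symbols. Control probe sets (6640) were left out and no filter on signal was applied. All 22206 clusters were fitted in R 4.3.3 with limma 3.58.1, with 1 mean per group, moderated variances (8.63 degrees of freedom) and Benjamini-Hochberg adjustment in each comparison. A gene was called at an adjusted p under 0.05.

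The 6 genes and all lists were chosen with earlier results of these data known. List genes (140 of 147 measured, 5 through an older symbol) were represented by the cluster of highest mean signal. The genes named are the 6, their neighbours in RefSeq, the 5 nearest in profile to each raised gene, and, from each partner list, called genes and those with the widest change. Rab5a to Rab5c, Adipor1, Adipor2, Pafah1b1, Cenpf, Nabp2, Inip, Ints11, Ints13, Nppa and Akt1 were named for their role or value, after their values were seen. One gene that the rule names is not reported here. Coordinates are printed for the RefSeq promoter windows only, and not for the arrays' clusters, since no source used here names the arrays' build. The calculation was tested on simulated data. Arrays give no depth, and their number limits the precision. Alternatives were quantile normalization, centring on the median, removal of dim probe sets, array weights, a robust fit with a variance trend, a replicate block, fits on just the 4 arrays compared, leaving out each array, and an unpaired Student's t-test.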

Additional observations from a re-analysis of the deposited data

How the results depend on the processing

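Under 13 alternatives, including each array left out, the log2 difference from control of Nde1 stayed between 2.39 and 2.92 in ATF6α-cn and between 2.84 and 3.37 in ATF6β-cn, that of Ints3 between 2.25 and 2.76 and between 2.17 and 2.604, and that of Appl1 between 1.98 and 2.12 and between 1.23 and 1.37. With 1 array left out, the change of Nde1 exceeded that of Ndel1 by 2.18 to 2.64 in ATF6α-cn and 2.80 to 3.30 in ATF6β-cn, that of Ints3 exceeded that of Ints6 by 1.997 to 2.46 and 2.597 to 3.09, and that of Appl1 exceeded that of Appl2 by 1.93 to 2.06 and 0.46 to 0.88. The difference of Ints3 between the lines (ATF6β-cn minus ATF6α-cn) ran from −0.37 to 0.14 with 1 array left out and changed sign, to 0.14 without ATF6α-cn replicate 1 and to 0.10 without ATF6β-cn replicate 1. The adjusted p of Appl1 between the lines ran from 0.0538 (variance trend with a robust fit) to 0.647 (t-test) over 14 alternatives, and none of the 6 genes passed there under any of them. Nabp1 was not called in ATF6β-cn with the replicate block, with the 4 arrays of the comparison alone or with any 1 array left out, which left 0 called Integrator and SOSS genes.

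Replicate numbers did not pair the samples (correlation of deviations 0.01, 0.02 and −0.02), and with the replicate block 16 clusters were called in ATF6α-cn, 189 in ATF6β-cn and 27 between the lines, against 21, 244 and 60 without it. The corresponding counts were 13, 190 and 36 with the 4 arrays of a comparison alone, 21, 227 and 38 after quantile normalization, 22, 383 and 87 without dim probe sets, and 61, 686 and 257 with a variance trend and a robust fit. With 1 array left out they ran from 9 to 13, from 41 to 190 and from 9 to 36. Leaving out 1 of the 2 arrays of the group outside a comparison removes that group's only contribution to the spread, so it gives the fit on the 4 arrays alone (13, 190 and 36 calls) and is no separate evidence about that array, for Nabp1 too. Where a compared group keeps 1 array, that array is assumed to vary like the others. For the other settings the cause was not tested. Student's t-test called 0 clusters in each comparison after adjustment, and 1522, 2266 and 1633 at an unadjusted p under 0.05. Signal close to background limits what can be said of Cenpf, the cell division genes and the dim genes of the likeness search.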
